A study of Capra hircus with 2 samples.

Results

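The miRNAs miR-140, miR-455 and miR-455* were examined in small RNA libraries of the goat mammary gland. They are 3 of the 346 conserved miRNAs named in the study's list, and they were chosen by name, not by their counts. A tag, meaning a distinct read sequence, was counted for a miRNA when its first 18 nt or more were identical to the listed sequence, whatever its 3′ end. Tags that started up to 4 nt before or after the listed start were counted apart. Mammary tissue came from Xinong Saanen dairy goats (Capra hircus), a dairy breed, in the dry period, when no milk is drawn, and at peak lactation. RNA of 3 goats was pooled at each stage, so each stage is 1 library, no spread between animals can be estimated, and every interval and p value given here compares 2 libraries and not 2 conditions. On the sample labels, the tissue named dry period was taken 75 days after lambing and that named peak lactation 320 days after, which reverses the days in the study's text, and the protocol on the labels names a further day. The stage names were taken from the sample titles, which the state given on the labels repeats and the study's text also uses, and every direction below would turn if the titles were exchanged. No treatment or genotype distinguished the goats.

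A miRNA is cut from a hairpin precursor whose arms each can yield a mature strand, called 5p and 3p, and the strand that is usually less abundant is marked with a star. Bases 2 to 8 of the mature strand, the seed, direct most target recognition, so a start moved by a single base gives a strand with a different seed. The miRNAs miR-140 and miR-455 are best known from cartilage, where both act under the transcription factor SOX9. In the RefSeq annotation of the goat assembly ARS1.2, MIR140 lies within the span of WWP2, a ubiquitin ligase gene, and MIR455 within COL27A1, a fibrillar collagen gene.

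The listed sequences are shown first because every count starts from them, with the seed in capitals. The listed miR-140 is a 3p strand of 21 nt, miR-455 a 5p strand of 22 nt and miR-455* the 3p strand of the same hairpin, also of 22 nt.
miR-140: aCCACAGGguagaaccacgga
miR-455: uAUGUGCCuuuggacuacaucg
miR-455*: gCAGUCCAugggcauauacacu

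The shifted tag with the most reads is shown next for each miRNA, since its seed differs from the listed one. The T of the deposited tags is written as U, and capitals again mark bases 2 to 8. The last sequence has the same start as the first and carries 2 more bases at its 3′ end. The last 2 sequences each held fewer than 5% of the reads of their miRNA and were chosen after their values were seen.
miR-140, start 1 nt earlier: uACCACAGgguagaaccacgga
miR-455, start 1 nt earlier: gUAUGUGCcuuuggacuacau
miR-455*, start 2 nt earlier: aUGCAGUCcaugggcauauaca
miR-140, start 1 nt earlier, long end: uACCACAGgguagaaccacggaca

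The dry period yielded 14851375 clean reads and peak lactation 15712891. Where a pair of values is given below without stages, the dry period comes first. Levels are given as reads per 1000000 clean reads (RPM). A count of 3 reads, the lowest level taken as measurable, is 0.202 RPM for the former and 0.191 RPM for the latter. The conserved miRNAs together took 61.2% of dry period reads and 14.4% of peak lactation reads. Of the 257 conserved miRNAs that reached 1 RPM in either library, 247 had a lower RPM at peak lactation, and their median log2 fold change, peak lactation over dry period, was -1.44. Each change is therefore also given relative to that median. Reads were counted without molecular identifiers, so intervals (Wilson, 95%) cover the counting of reads only.

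All 3 miRNAs were less abundant per clean read at peak lactation, miR-455 and miR-455* more so than miR-140. For miR-140, the count was 81819 reads in the dry period library and 38123 at peak lactation. These equal 5509 RPM (5472 to 5547) and 2426 RPM (2402 to 2451). The level at peak lactation was 2.27-fold lower (2.24 to 2.30). Even so, miR-140 moved from rank 16 to rank 12 among the conserved miRNAs, and its share of their reads went from 0.901% to 1.68%. Its log2 fold change was -1.18 (-1.20 to -1.17), which is 0.26 above the median of the tested miRNAs, and it turned to 0.90, 0.12 and 0.21 when the libraries were scaled by their conserved miRNA reads, by TMM factors or by DESeq2 size factors.

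The 5p strand miR-455 was a rare miRNA, with 162 dry period reads and 31 at peak lactation. This is 10.9 RPM (9.35 to 12.7) against 1.97 RPM (1.39 to 2.80), a level 5.53-fold lower (3.77 to 8.10) at peak lactation. Its log2 fold change was -2.47 (-3.02 to -1.92), with an exact Audic-Claverie p of 1.7e-24 for the 2 libraries. The 3p strand miR-455* had 482 and 84 reads. The level went from 32.5 RPM (29.7 to 35.5) to 5.35 RPM (4.32 to 6.62) at peak lactation, or 6.07-fold lower (4.82 to 7.65). Its log2 fold change was -2.60 (-2.94 to -2.27), with an exact Audic-Claverie p of 4.8e-74. Relative to the median of the tested miRNAs, miR-455 lay 1.03 lower and miR-455* 1.16 lower on the log2 scale, and both kept a negative log2 fold change under the other 3 scalings, between -0.38 and -1.30. The lower RPM at peak lactation does not set the 3 miRNAs apart, since 247 of the 257 tested miRNAs had it.

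**Figure D1:**
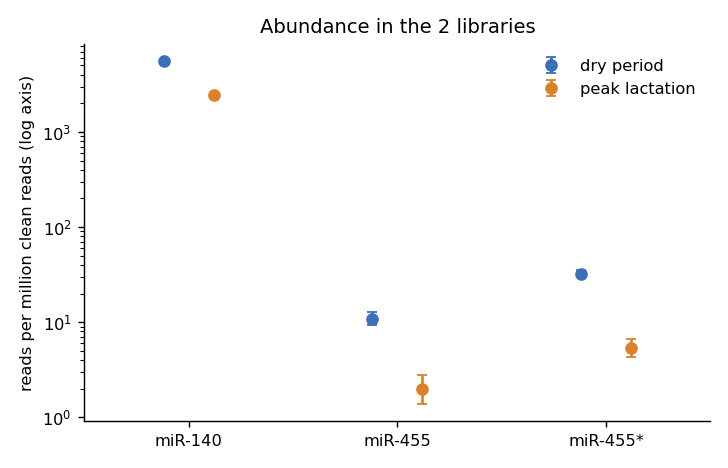
Level of miR-140, miR-455 and miR-455* in RPM (log axis) in the dry period and peak lactation libraries, 1 library each, with 95% Wilson intervals that cover the counting of reads only. Each miRNA lies lower at peak lactation on this scale, from 5509 to 2426 RPM for miR-140, from 10.9 to 1.97 RPM for miR-455 and from 32.5 to 5.35 RPM for miR-455*, and the direction of miR-140 turns when the libraries are scaled by miRNA reads, TMM or DESeq2 factors.

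By the thresholds of the study, an absolute log2 fold change above 1 and an Audic-Claverie p below 0.01, all 3 miRNAs were called lower at peak lactation. The same call was made for 67.7% of the 257 tested miRNAs and the opposite call for 1.17%, so being called lower does not set the 3 miRNAs apart. The call was lost for miR-140 under each of the other 3 scalings, and for miR-455 and miR-455* when scaled by conserved miRNA reads. Their places among the tested miRNAs differed. A lower log2 fold change than that of miR-140 was found for 60.3% of the tested miRNAs, against 17.1% for miR-455 and 14.8% for miR-455*. In bulk tissue, fewer cells that hold a miRNA and less of it per cell cannot be told apart.

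**Figure D2:**
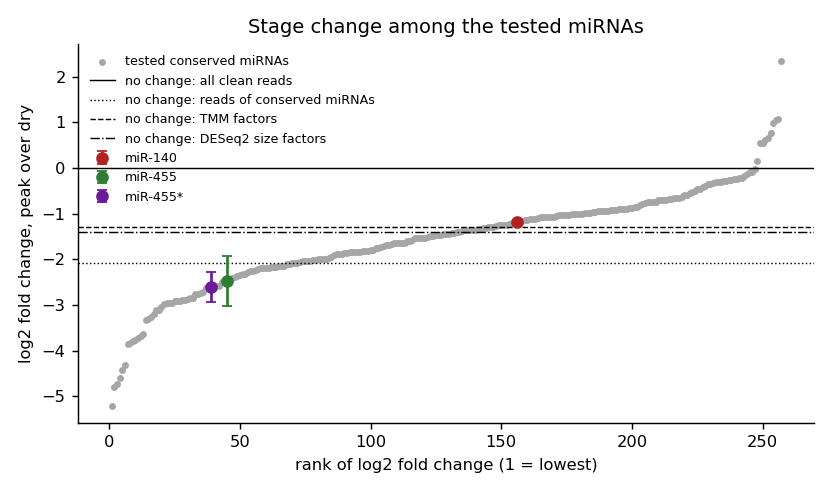
Log2 fold change (peak lactation over dry period, RPM) of the 257 tested conserved miRNAs in rank order, grey, with miR-140, miR-455 and miR-455* in colour and their 95% counting intervals; horizontal lines mark where no change lies under each scaling. By clean reads all 3 are below the solid line at 0, whereas miR-140 lies above the other 3 lines, where its log2 fold change is 0.12 to 0.90, and miR-455 and miR-455* lie below every line.

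The difference between miRNAs within the same libraries does not depend on how the libraries are scaled. The change of miR-455 was 1.28 lower than that of miR-140 on the log2 scale (log2 odds ratio -1.28, -1.89 to -0.72), with an adjusted p of 1.3e-06 by the exact Fisher test over 3 pairs. For miR-455* against miR-140 the log2 odds ratio was -1.42 (-1.77 to -1.08), with an adjusted p of 9.0e-20 by the exact Fisher test. There were 127 reads of miR-140 for each read of either miR-455 strand in the dry period library and 331.5 at peak lactation. Between miR-455* and miR-455 the difference was -0.13, with an interval from -0.81 to 0.56 and an exact Fisher p of 0.727, so a difference of up to about that size in either direction was not detectable at this depth.

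The arm marked with the star was the more abundant strand of the miR-455 hairpin at both stages. In the dry period library, miR-455* made up 74.8% (71.4 to 78.0) of the reads of both arms, and at peak lactation 73.0% (64.3 to 80.3). This is 2.98 reads of miR-455* for each read of miR-455 in the dry period library and 2.71 at peak lactation. With shifted starts included the shares were 74.9% and 73.7%. When only tags identical to the listed sequences were counted, the shares were 50.4% and 53.5%, and the tag identical to the listed sequence held 69.8% of the listed-start reads of miR-455 in the dry period library against 23.9% of those of miR-455*.

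The study's list names a single arm of miR-140. To look for the other arm, tags of 19 to 25 nt were searched for those that could pair with miR-140 as the strands of a hairpin do, with at least 17 base pairs, 15 of them Watson-Crick. As a check, the same search with the early start of miR-455* returned the listed miR-455 as its most abundant partner, with 113 and 20 reads. With the listed start of miR-455* it missed the listed miR-455, and the most abundant partner was the early-start form of miR-455, with 21 and 2 reads. For both starts of miR-140 it returned a family of tags that share their start. The form with the most dry period reads is shown here as the candidate for the 5p arm, with bases 2 to 8 in capitals.
Candidate 5p arm of miR-140: cAGUGGUUuuacccuaugguaa
The pairing with the early start of miR-140 held 19 base pairs, 18 of them Watson-Crick, and no hairpin sequence was at hand to place the tag.

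The candidate arm was rare. The form shown had 11 reads in the dry period library and 2 at peak lactation, where a form ending in uag had 3. Counted together with other forms of its family, the candidate had 31 reads in the dry period library, or 2.09 RPM (1.47 to 2.96). At peak lactation it had 6 reads, or 0.382 RPM (0.175 to 0.833), and no read had a shifted start. It made up 0.0221% (0.0156 to 0.0314) of the reads of both arms, all starts of miR-140 included, in the dry period library and 0.00887% (0.00406 to 0.0194) at peak lactation. The 3p strand thus had 4523 and 11277 reads for each read of the candidate. The candidate's log2 fold change was -2.45 (-3.68 to -1.23). Its change against miR-140 gave a log2 odds ratio of -1.32 (-2.87 to -0.04) with an unadjusted exact Fisher p of 0.0350. This value rests on 6 reads at peak lactation and on a candidate found by searching these same tags. If the candidate is the other arm of miR-140, nearly all reads of that hairpin came from the 3p strand. For miR-455, whose arms are both listed, each arm held a sizeable share of the reads. The search can miss a true arm, as it did from the listed start of miR-455*. Without a hairpin sequence to place the candidate, a difference in arm use between the hairpins was not tested.

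Each of the 3 miRNAs had a large share of reads with a shifted start. Of the 140223 reads of miR-140 with any start in the dry period library, 58.4% began at the listed base and 40.0% (39.8 to 40.3) began 1 nt earlier. At peak lactation, with 67660 reads, these shares were 56.3% and 42.3% (41.9 to 42.7). The base added in front was U in 99.6% of the reads with the earlier start. Starts 1 nt later held 1.49% and 1.24%. Taken over all shifts, 41.7% of the reads in the dry period library and 43.7% at peak lactation had a shifted start, a log2 odds ratio of 0.12 (0.09 to 0.15) with an adjusted p of 1.4e-17 by the exact Fisher test over 3 miRNAs. This is a difference of about 2 percentage points that the depth of miR-140 makes measurable. The early-start tag with the long end, shown above, alone went from 0.52% to 4.3% of all miR-140 reads, more than that difference. A change in the starts apart from this tag was not tested.

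For miR-455, 59 of 234 reads in the dry period library (25.2%) and 10 of 41 at peak lactation (24.4%) began 1 nt earlier, nearly always with G. A start 2 nt later had 13 reads in the dry period library and 0 of 41 at peak lactation. The shifted share was 30.8% (25.2 to 37.0) and 24.4% (13.8 to 39.3), with an adjusted exact Fisher p of 0.464. For miR-455*, the most frequent shift was 2 nt earlier, always with AU in front, at 118 of 697 reads (16.9%) and 19 of 115 reads (16.5%), and the tag of this start shown above had 28 and 4 reads. Starts 1 nt later held 9.76% and 7.83%, and starts 1 nt earlier 22 and 2 reads. Its shifted share was 30.9% (27.5 to 34.4) and 27.0% (19.7 to 35.7), with an adjusted exact Fisher p of 0.464. At these depths a change of several percentage points in the starts of either miR-455 strand was not detectable.

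Shifted starts were rare in most other miRNAs. Among the 190 conserved miRNAs with at least 100 reads in either library, the median shifted share was 1.20% for the dry period and 1.24% at peak lactation. A higher share than that of miR-140 was found in 7 and 5 of them, higher than miR-455 in 14 and 22, and higher than miR-455* in 13 and 20. Of the miRNAs named below as nearest in log2 fold change, miR-214 held 33.2% and 32.7% and miR-199c 39.8% and 43.0%. The highest share in the rest of those was that of miR-17-3p, 9.95% and 9.25%.

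**Figure D3:**
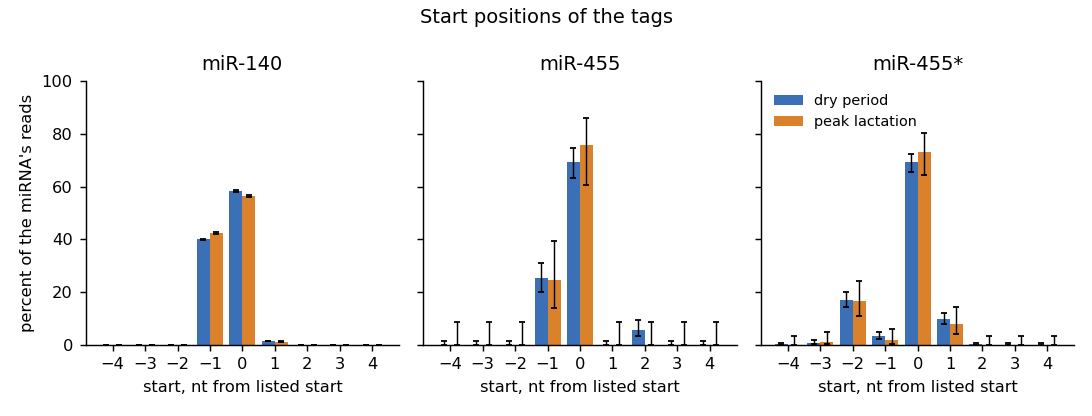
Share of the reads of miR-140, miR-455 and miR-455* by start position relative to the listed start (nt), in percent of the miRNA's reads, for the dry period and peak lactation libraries; bars are shares in 1 library and lines are 95% Wilson intervals. The start 1 nt earlier holds 40.0% and 42.3% of miR-140, and 25.2% and 24.4% of miR-455, while miR-455* has its main shift 2 nt earlier.

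The shifts changed the seed. Listed miR-140 has the seed CCACAGG, the early start ACCACAG and the later start CACAGGG. The seed of miR-455 is AUGUGCC at the listed start and UAUGUGC at the early start, and that of miR-455* is CAGUCCA at the listed start and UGCAGUC at the start 2 nt earlier. No other conserved miRNA of the list, of 346, had any of these seeds at its listed start.

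The 3′ ends of miR-140 varied more than its starts. The tag identical to the listed sequence held 30.5% of the reads with the listed start in the dry period library and 29.9% at peak lactation, with an adjusted exact Fisher p of 0.140. Tags 1 nt longer were the most frequent, at 49.6% and 49.7%. Among the single bases added after the listed end at the listed start, C had 16377 and 7989 reads, A 14850 and 6720 reads, U 8201 and 3720 reads and G 658 and 330 reads. Tags 2 or more nt longer held 15.9% and 16.6%, and shorter tags 3.45% and 3.30%. The mix of ends after the listed start was thus nearly alike in the 2 libraries, with a mean length of 21.8 nt in each.

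After the early start the ends differed between the libraries. Tags 2 or more nt longer than the listed end held 3.69% of the 56113 early-start reads in the dry period library and 16.9% of the 28620 at peak lactation. Shorter tags went from 15.8% to 9.74%, and tags with the listed end from 40.6% to 29.9%. The mean length was 22.3 nt in the dry period library and 22.7 nt at peak lactation. The early-start tag with the listed end, shown above, had 21456 and 8056 reads. The form with 1 more C had 11796 and 6654 reads, and the form 1 nt shorter had 7728 and 2453 reads.

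**Figure D4:**
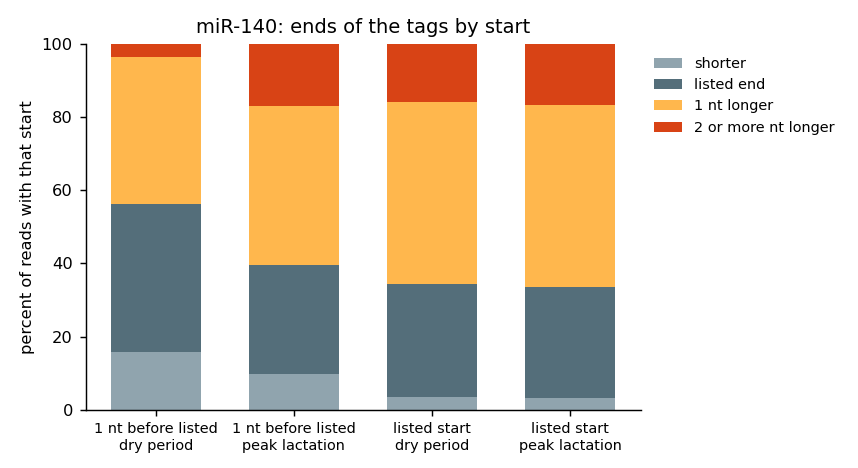
Share of miR-140 reads by 3′ end relative to the listed end, in percent of the reads with the same start, for the start 1 nt before the listed one and for the listed start in each library (1 library per stage). After the earlier start, ends 2 or more nt longer go from 3.69% to 16.9%, while after the listed start they are 15.9% and 16.6%.

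Split by end, the log2 fold change of the early-start tags was higher at each later end among the ends with at least 50 reads in all. It was -1.81 for tags ending 2 nt before the listed end, -1.74 for 1 nt before, -1.50 at the listed end, -0.93 at 1 nt past, 1.11 at 2 nt past and 2.41 at 3 nt past. Tags with the listed start stayed between -1.25 and -1.08 over the ends from 1 nt before to 3 nt past the listed end. The reads behind the early-start values ranged from 32 and 180 reads at 3 nt past the end to 22764 and 8545 reads at the listed end.

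**Figure D5:**
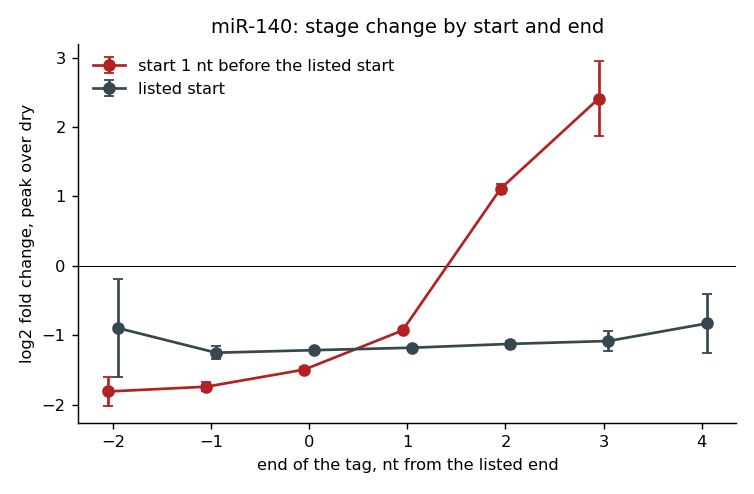
Log2 fold change (peak lactation over dry period, RPM by clean reads) of miR-140 reads by the position of their 3′ end relative to the listed end (nt), for the start 1 nt before the listed one and for the listed start, with 95% counting intervals (1 library per stage, ends with at least 50 reads in all). The early-start values run from -1.81 to 2.41, and the listed-start values stay between -1.25 and -0.83; scaling by miRNA reads, TMM or DESeq2 factors moves every point up by the same amount, so that listed-start values turn positive there.

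A single tag held most of this difference, the early-start tag with CA after the listed end shown above. It had 734 reads in the dry period library and 2933 at peak lactation, so it was more abundant at peak lactation, with a log2 fold change of 1.92 (1.80 to 2.03). Its log2 fold change was 3.22 with TMM factors, 3.31 with DESeq2 size factors and 4.001 when scaled by conserved miRNA reads, alternatives added for this tag after its values were seen. Within the early-start reads its share went from 1.31% (1.22 to 1.41) to 10.3% (9.90 to 10.6), an odds ratio of 8.62. The same CA end after the listed start had 2471 and 1157 reads, with shares of 3.02% and 3.04% and a log2 odds ratio of 0.01 (-0.10 to 0.11). Set against each other, the early and listed starts with this end differed by 3.09 (2.94 to 3.25) on the log2 scale. Other early-start ends were higher at peak lactation too. The end CU had 121 and 307 reads (log2 fold change 1.26) and the end CAA 5 and 80 reads (3.92), while AA had 470 and 496 reads and AU 308 and 330 reads.

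The 17 early-start tags of miR-140 with at least 100 reads in either library had log2 fold changes from -1.82 to 1.92, and 5 were above 0. Of these 5, the tags with 93 and 118 reads and with 53 and 146 reads reached that depth only at peak lactation, where they were higher. The intervals of the tag with 93 and 118 reads and of that with 308 and 330 reads held 0. The 24 listed-start tags of that depth ran from -1.55 to -0.77, with 0 above 0. Among all 557 tags of conserved miRNAs with at least 500 reads in either library, 5 (0.898%) had a log2 fold change above 1, and 1 of the 5 belonged to miR-140. No other of the 557 tags lay further above the log2 fold change of its own miRNA, by 3.10 for the CA tag. Of 84 combinations of a miRNA and a start with at least 1000 reads in both libraries, 68 had a larger share of ends 2 or more nt past the listed end at peak lactation. Their log2 odds ratios ran from -0.81 to 2.41 with a median of 0.21, the highest being that of the early start of miR-140, whereas the listed start of miR-140 was at 0.08, with 58 combinations above it. These comparisons were made after the long tag had been seen and carry no test. Without the goat hairpin, which of these 3′ bases are in the precursor was not tested.

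For miR-455, the listed tag held 113 of 162 reads with the listed start in the dry period library (69.8%) and 20 of 31 at peak lactation (64.5%). A form with 1 more U had 29 and 4 reads, and one 3 nt shorter had 1 and 3 reads. The early-start form shown above had 21 and 2 reads, and its version with the listed end had 15 and 5 reads. For miR-455*, no end held most of the reads. The listed tag had 115 and 23 reads, 23.9% and 27.4% of those with the listed start. Ends differed by a few bases, as the 4 forms with the most reads show, with bases 2 to 8 in capitals.
miR-455*, listed end: gCAGUCCAugggcauauacacu
miR-455*, 1 nt shorter: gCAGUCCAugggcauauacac
miR-455*, other last base: gCAGUCCAugggcauauacacc
miR-455*, 2 nt shorter: gCAGUCCAugggcauauaca
The last 3 had 102 and 18, 87 and 16, and 78 and 11 reads. The share of the listed tag did not pass the exact Fisher test between libraries for either strand, with an adjusted p of 0.672 for each.

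The conserved miRNAs whose log2 fold change was nearest to that of miR-140, among those with at least 100 reads, were miR-26b (-1.18), miR-17-3p (-1.15) and miR-92b (-1.22). Nearest to miR-455 were miR-214 (-2.45), miR-708 (-2.50) and miR-199b (-2.50). Nearest to miR-455* were miR-206 (-2.60), miR-3432 (-2.59) and miR-199c (-2.58). These are closeness in 2 libraries only.

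Lists of miRNAs known from cell types of the tissue are given by clean reads. Not every listed miRNA is particular to its cell type, since the study names miR-21 among the most abundant in other tissues too. The other 3 scalings raise every value by 1.30 to 2.08 on the log2 scale, which turns many of them positive. Of 14 miRNAs known from mesenchymal and vascular smooth muscle cells, 10 were called lower and 0 higher, beside 67.7% and 1.17% of all tested miRNAs, with a median log2 fold change of -1.74, against -1.44 over all tested miRNAs. Their summed levels were 42202 and 13798 RPM, and miR-199a-3p (-2.96), miR-21 (-1.91), miR-143 (-0.86) and miR-29a (-1.33) held the most reads. Of 11 epithelial miRNAs, 7 were called lower and 0 higher, with a median of -1.35 and summed levels of 3067 and 1596 RPM, and those with the most reads were miR-200a (-1.35), miR-200b (-0.96), miR-200c (-0.45) and miR-375 (-0.39). Of 9 blood and endothelial miRNAs, 3 were called lower and 2 higher, with a median of -0.41 and summed levels of 671 and 417 RPM, and among those with the most reads miR-451 (1.07) and miR-486 (0.15) had positive values and miR-142 (-1.64) and miR-126 (-0.74) negative ones. Of 5 muscle miRNAs, 4 were called lower and 0 higher, with a median of -1.33 and summed levels of 7299 and 3874 RPM, and those with the most reads were miR-1 (-0.90), miR-206 (-2.60), miR-499 (-1.10) and miR-133a (-1.33). Members of each list spread widely. Log2 fold changes ran from -3.20 to -0.55 in the mesenchymal and vascular smooth muscle list and from -4.42 to -0.09 in the epithelial list. They ran from -2.92 to 1.07 in the blood and endothelial list and from -2.60 to -0.90 in the muscle list. The part of cell composition in the changes of miR-140, miR-455 and miR-455* was not tested. Whether the 3 miRNAs came from stromal cells cannot be checked in bulk tissue.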

How the data were processed

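Per the labels, total RNA of mammary tissue was pooled from 3 goats at each stage. The authors filtered Solexa reads for quality, adaptors, poly(A) and a length of at least 18 nt and collapsed identical reads. They deposited, per library, each tag with its count of clean reads, neither normalized nor aligned. The submitters' processing notes name CASAVA, with no version. Counts were divided by clean reads (RPM). A miRNA was tested from 1 RPM in either library and a count of 0 was set to 0.01 RPM. A tag that matched several miRNAs went to the longest match, with ties counted for each, and shifted tags shared at least 16 nt with the listed sequence. The Audic-Claverie probability and thresholds are those of the study's methods, and Fisher tests were exact and two-sided. A quasi-likelihood fit was not possible with 1 library per stage, so edgeR 4.0.16 and DESeq2 1.42.0 (R 4.3.3) gave normalization factors only. Counting and tests were run with scipy 1.17.1 and numpy 2.4.6 in Python 3.11.15. The counting, and the call by fold change and Audic-Claverie p, were checked on simulated data. The Fisher tests and the pairing search were not. Plots were drawn with matplotlib 3.10.9.

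The miRNAs, lists and named tags were chosen with earlier results of these data known. Named were the 3 miRNAs, their end forms with at least 5% of reads, miRNAs sharing a seed and the 3 with the nearest log2 fold change. Up to 4 miRNAs of each cell type list, those with the most reads, were named too. Alternatives covered scaling, matching, filters and adjustment. Positive log2 fold changes mean a higher level at peak lactation. Sequences come from the study's list and the deposited tags.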

Additional observations from a re-analysis of the deposited data

How the results depend on the processing

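Over 23 results and 127 alternative values, 104 kept their direction and side of the threshold or stayed within the counting interval, 2 lost the call, 5 turned direction and 16 moved. For the log2 fold changes of the 3 miRNAs, adjusting p or changing the filter on low counts used the same reads. Those alternatives returned the same value by construction and are among the 104. The 23 results include the early-start CA tag of miR-140. Its values under the other 3 scalings, added after the tag was seen, are also among the 104. Scaled by reads of conserved miRNAs, by TMM factors and by DESeq2 size factors, the median of all tested miRNAs moved up by 2.08, 1.30 and 1.40 on the log2 scale. The log2 fold change of miR-140 turned to 0.90, 0.12 and 0.21, none of them called. By conserved miRNA reads, miR-455 (-0.38) and miR-455* (-0.52) were no longer called. The miRNAs called lower became 15, 48 and 42, and those called higher 85, 22 and 28. The difference of miR-455* from miR-455 turned to 0.18 with identical tags and 0.0016 with at least 20 nt, both within an interval that holds 0. Identical tags gave a share of miR-455* of 50.4% and 53.5%. The shifted share of miR-140 in the dry period library was 41.3% with at least 20 nt, 41.4% with 1 mismatch and 41.2% with shifts of up to 2 nt, and at peak lactation 43.3% with the last. With shifted starts included, reads that stopped at the listed position with the listed last 3 bases were 33.8% of miR-140, 54.7% of miR-455 and 17.8% of miR-455* in the dry period library, and 29.3% of miR-140 at peak lactation. No paired analysis was possible because each stage has 1 library, and for the same reason no library could be left out. Counts of 31 or fewer at peak lactation limit miR-455, its shifted starts and the candidate 5p arm of miR-140.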
